A study of Homo sapiens with 12 samples.

Results

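EEF1A2 encodes eEF1A2, a form of the translation elongation factor eEF1A. It was chosen here from earlier results of these data, as every probe set that the platform annotation maps to the gene. This is 1 probe set, 204540_at (Entrez gene 1917), of 54675 on the array, and 1 gene of 19775 that could be named by a single symbol. The arrays are 12 Affymetrix U133 Plus 2.0 arrays, hybridised with RNA from IGROV-1, an ovarian carcinoma line long established from a human tumour, in 4 groups of 3. Parental cells were not transfected. Mock cells had received a plasmid with a scrambled short hairpin RNA (shRNA) and are a pool of clones. The groups shCXCR4_I and shCXCR4_II, called clones I and II here, had received plasmids with shRNA against CXCR4, the receptor for the chemokine CXCL12, and were grown from individual clones. All 3 transfected groups had been transfected with a lipid reagent and selected in 4 µg/ml puromycin, from 48 hours on and for 30 days. Knockdown of CXCR4 and clonal origin therefore change together in every comparison of a clone with Mock, and transfection, selection and the scrambled hairpin change together between Mock and Parental. Each array received cRNA made from 6 µg of total RNA.

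The factor eEF1A carries aminoacyl-tRNAs to the ribosome as a complex with GTP, and leaves once the codon is matched and GTP is cleaved. Vertebrates have a pair of closely similar forms. EEF1A1 is expressed in nearly all tissues, while EEF1A2 in healthy adults is largely restricted to neurons, heart and skeletal muscle. EEF1A2 has been described as overexpressed in a part of ovarian carcinomas and as having growth-promoting activity there.

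EEF1A2 was high in Mock cells and low in the other 3 groups. In the deposited log2 units, the 3 Mock arrays read 7.87, 8.11 and 8.0. The Parental arrays read 5.46, 5.49 and 5.22. The clone I arrays read 4.80, 3.92 and 4.39, and those of clone II 4.81, 4.59 and 4.71. Every Mock array therefore lay above every other array, every Parental array lay above every array of both clones, and the arrays of clones I and II overlapped. How many of all genes separate Parental from both clones in this way was not counted.

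The group means ± SD (n = 3 arrays each) were 8.0 ± 0.12 in Mock, 5.39 ± 0.15 in Parental, 4.70 ± 0.11 in clone II and 4.37 ± 0.44 in clone I. The order of the levels was thus Mock, Parental, clone II and clone I, of which the last neighbours in the order did not differ beyond their spread. Replicates of clone I were the most scattered, with replicate 2 the lowest of all 12 arrays. The pooled SD of EEF1A2 over the 4 groups was 0.25, against 0.10 for the median gene, and lay at percentile 99.5 of all genes. Because these values chose the gene, they are a description and carry no test. In RNA from whole cultures, fewer cells that express the gene and less RNA per cell cannot be told apart.

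Taken over all probe sets, the array medians ran from 4.25 to 4.39, with the Mock arrays at 4.25 to 4.28. Relative to its own array's median, EEF1A2 stood 3.59 to 3.86 higher on the Mock arrays and 0.91 to 1.19 higher on the Parental arrays. On the clone II arrays it stood 0.24 to 0.42 higher, and on those of clone I between -0.41 and 0.46. The values of the Mock arrays were also spread more widely, with an interquartile range of 3.38 to 3.43, against 3.19 to 3.31 for the other 9 arrays.

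**Figure D1:**
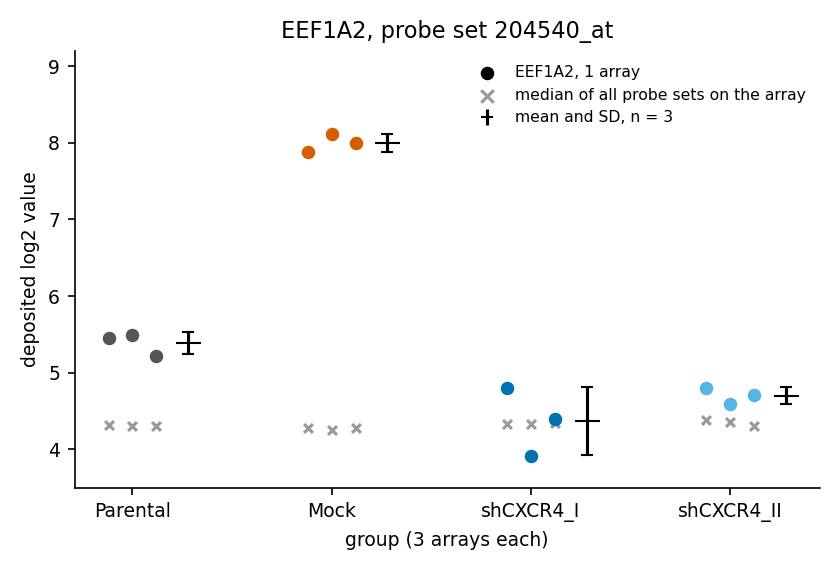
Deposited log2 value of EEF1A2 (vertical axis) on each of the 12 arrays by group (horizontal axis). Points are arrays, black bars the mean and SD of 3 arrays, and crosses the median of all probe sets on the same array. Mock arrays sit between 7.87 and 8.11, Parental arrays between 5.22 and 5.49, and the arrays of both clones between 3.92 and 4.81, while the array medians stay between 4.25 and 4.39.

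Ranked by group mean among the 19775 genes, EEF1A2 was at place 3924 in Mock, with 80.2% of genes below it. It was at place 9722 in Parental cells (50.8% below), at 11851 in clone II (40.1% below) and at 12865 in clone I (34.9% below). Ranks between probe sets also depend on how strongly each binds its target, so they place the signal and do not measure RNA amounts. Detection calls were not used here, and signals near the middle of an array cannot be told apart from background hybridisation on these values alone.

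Against Mock, EEF1A2 was lower by 3.63 on the log2 scale in clone I (mean difference -3.63, limma SE 0.16), or 12.4-fold, which leaves 8.09% of the Mock signal. In clone II it was lower by 3.29 (difference -3.29, SE 0.16), or 9.80-fold, which leaves 10.2%. These are ratios of signal. The clone signals lay around the array medians, where background cannot be told apart, so the ratios of RNA are not known from these values. The lowest Mock array was 3.08 above the highest array of clone I and 3.07 above the highest of clone II. By size of difference EEF1A2 was gene 3 of 19775 in clone I and gene 5 in clone II. The 1st and 99th percentiles of all genes were -0.69 and 0.65 in clone I, and -0.75 and 0.55 in clone II. Both comparisons use the same 3 Mock arrays, so their likeness is not independent.

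The 2 genes just ahead of EEF1A2 in clone I were DACH1, a transcriptional regulator, at -4.41, and GJA1, the connexin gene of most gap junctions, at -4.27. The 2 just behind were TOX3, which encodes a nuclear protein with an HMG box, at -3.26, and LRCH2, which encodes a leucine-rich repeat protein, at -3.22. In clone II the 2 just ahead were THSD7A, a membrane protein gene, at -3.73, and KCTD12 at -3.41. TOX3 at -3.28 and NCALD, a neuronal calcium sensor gene, at -3.20 came just behind. TOX3 was thus the next gene after EEF1A2 in both clones.

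Mock exceeded Parental by 2.61 (SE 0.16), or 6.09-fold, with a gap of 2.38 between the nearest arrays. This was the 6th largest difference of all genes in that comparison and the 3rd largest rise. The step between the 2 control groups equals 71.8% of the log2 distance from Mock to clone I and 79.2% of that to clone II. These are shares of the distance in signal, which ends near the array medians in the clones, and are not shares of RNA. The remainder lies between the clones and Parental. Clone I was below Parental by 1.02 (difference -1.02, SE 0.16), at 49.3% of the Parental signal, and clone II by 0.69 (difference -0.69, SE 0.16), at 62.1%. The gap between the nearest arrays was 0.42 and 0.41.

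Against Parental, EEF1A2 was no longer among the most changed genes. It ranked 134 by size in clone I, where 0.673% of genes differed by more, and 349 in clone II, where 1.76% did. Among falls alone it ranked 90 and 267. Between the clones the difference was -0.33 (clone I minus clone II, SE 0.16), with an overlap of 0.21 between the arrays, and rank 867. Without replicate 2 of clone I that difference was -0.11, and without replicate 1 it was -0.55.

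**Figure D2:**
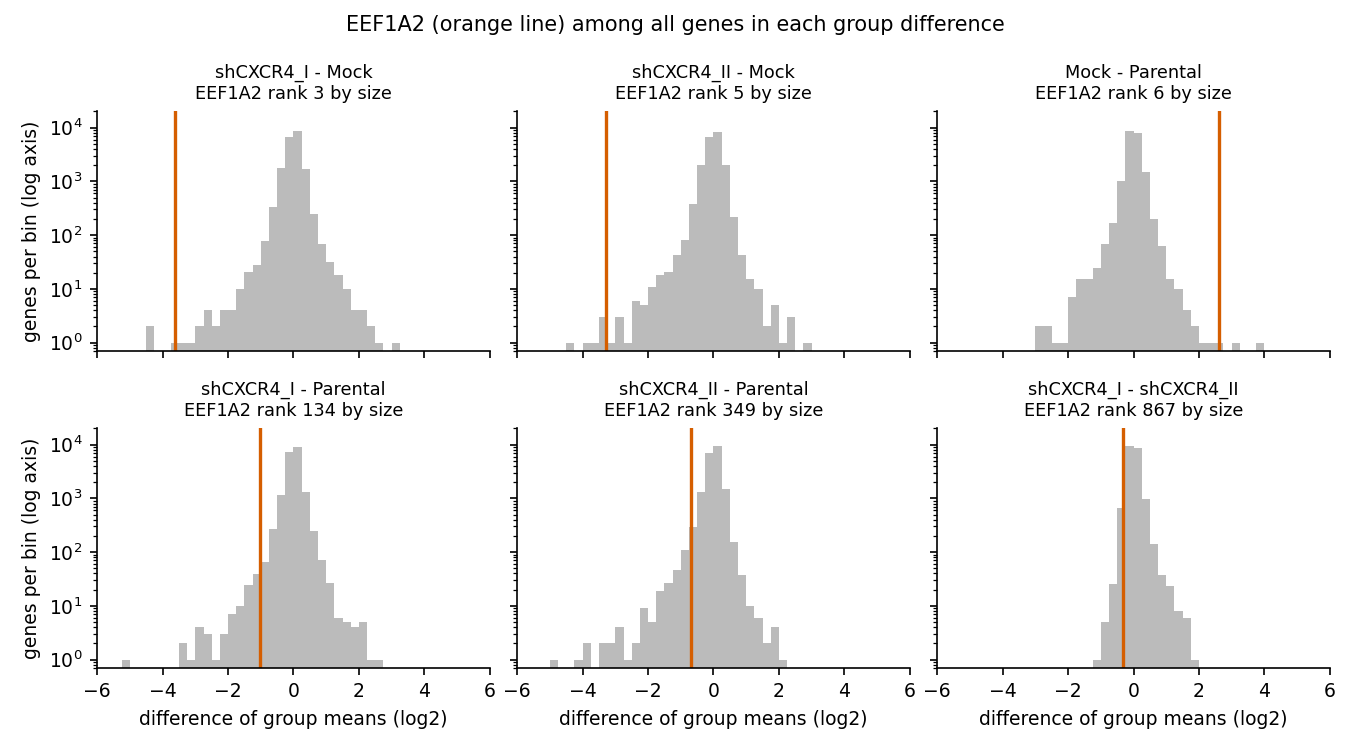
Differences of group means (log2, horizontal axis) for all 19775 genes in the 6 group comparisons, as genes per bin on a log axis, with EEF1A2 as an orange line. EEF1A2 stands at -3.63, -3.29 and 2.61 in the 3 comparisons that involve Mock, and at -1.02, -0.69 and -0.33 in the other 3.

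A level that is set apart in Mock cells was rare on this scale. EEF1A2 in Mock exceeded the next highest group mean by 2.61, the second largest such excess after LRCH2 (2.96), followed by NOSTRIN (2.44), SAGE1 (2.09) and TOX3 (1.96). Of 19775 genes, 20 had a Mock mean at least 1 log2 unit above every other group, and 4 had one at least 2 units above. In the other direction 16 genes had a Mock mean at least 1 unit below every other group, and 1 at least 2 units below. Non-overlap by itself was common, since every Mock array lay above every other array for 8.35% of genes and below for 4.56%. All genes named here, EEF1A2 included, were picked by their values, so their places are a description.

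CXCR4, the gene targeted by the hairpins, was lowered in both clones. On probe set 217028_at its mean was 8.33 in Parental, 8.58 in Mock, 7.09 in clone I and 6.62 in clone II. The difference from Mock was -1.49 in clone I (limma adjusted p = 6.11e-08) and -1.96 in clone II (limma adjusted p = 4.38e-09). Mock minus Parental was 0.25 (limma adjusted p = 0.0699 over all genes, 0.0958 over all single-symbol probe sets). That last difference passed after centring (0.29, 0.0494), with the mean of probe sets (0.30, 0.0119), among genes of mean log2 of at least 6 (0.0236) and without clone II replicate 1 (0.0116). On the probe sets 209201_x_at and 211919_s_at the differences from Mock were -1.12 and -1.07 in clone I and -1.38 and -1.24 in clone II, and Mock minus Parental was 0.30 and 0.36 (limma adjusted p = 0.11 and 0.0465). EEF1A2 and CXCR4 were therefore both lowest in the clones, but the separation of Mock from Parental was 0.25 for CXCR4 and 2.61 for EEF1A2. Nothing says that the arrays of a group came from separate cultures, so the p-values reflect array-to-array spread that could be purely technical.

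EEF1A1, the widely expressed paralog, showed no called difference in any comparison. It had 6 probe sets, 4 of them named _x_at, which marks probes that can bind several transcripts, and EEF1A1 has many near-identical pseudogene copies. On the probe set with the highest mean, 204892_x_at, the group means were 13.12 in Parental, 13.13 in Mock, 13.14 in clone I and 13.19 in clone II. Its 12 arrays ran from 13.11 to 13.25. The differences were 0.02 for clone I and 0.06 for clone II against Mock, and 0.00 for Mock against Parental.

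Across the 6 probe sets and 6 comparisons, 0 of 36 EEF1A1 differences passed, the largest was 0.25 in size and the smallest limma adjusted p, over all single-symbol probe sets, was 0.0826. Only 1 gene had a higher mean signal than EEF1A1, and the highest value on any array was 13.36, so EEF1A1 lay close to the top of the measured scale. Whether saturation of the signal hides differences there was not tested. The levels of both forms cannot be added up from these arrays, since the probe sets are not on a common scale.

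The other measured genes of translation elongation moved little. Of 30 measured members of 3 lists (cytosolic elongation factors, enzymes that modify them, and related translational GTPases), 2 rose and 10 fell in clone I against Mock. Over all genes, 23.6% passed in that comparison, 9.97% up and 13.6% down. In clone II 4 rose and 4 fell, against 26.1% of all genes, 11% up and 15.1% down. Between Mock and Parental 8 were higher in Mock and 1 lower, against 15% of all genes, 9.78% up and 5.23% down. The list medians were -0.07, -0.08 and 0.11, against 0.02, 0.02 and 0.00 over all genes. Against Parental, 5 rose and 2 fell in clone I, where 16.8% of all genes passed (8.25% up and 8.56% down), and 5 rose and 0 fell in clone II, where 17% passed (7.47% up and 9.48% down). Between the clones 1 was higher in clone I and 1 lower, against 7.15% of all genes (4.66% up and 2.48% down).

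The split between rises and falls depended on how the arrays were scaled. After quantile normalisation 7 list members rose and 5 fell in clone I, 8 rose and 2 fell in clone II, and 4 were higher and 1 lower in Mock than in Parental. After centring on array medians the counts were 1 up and 10 down, 1 up and 9 down, and 9 up and 0 down. Over all genes, the share of calls that were rises was 42.2% in each clone as deposited, 53.7% and 54.6% after quantile normalisation, and 23.8% and 21.3% after centring. For Mock against Parental it was 65.2%, 54.8% and 75.2%. EEF1A2 itself moved by less than its spread of 0.25 under both scalings, to -3.58 and -3.69 in clone I, -3.25 and -3.37 in clone II and 2.53 and 2.65 for Mock against Parental.

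Single arrays also moved the list counts. Of the 12 genes called in clone I, 4 stayed called without Mock replicate 2, 7 without Mock replicate 3, and 6 without clone I replicate 1, 2 or 3. Of the 8 in clone II, 3 stayed called without Mock replicate 2 or 3, and 4 without clone II replicate 1 or 2. Of the 9 between Mock and Parental, 4 stayed called without Parental replicate 1, and 3 without Parental replicate 2 or Mock replicate 3. Against Parental, 4 of the 7 in clone I stayed called without clone I replicate 1 or Parental replicate 2, and 3 of the 5 in clone II without Parental replicate 3. Among these settings, 1 new call came up in each of 3: EEF1AKMT1 in clone I without its replicate 3, DPH3 in clone II without its replicate 1, and EIF5A2 between Mock and Parental without Mock replicate 3. Without probe sets named _x_at or _s_at, 5 members passed in clone I and 4 between Mock and Parental.

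Among the cytosolic factors, EIF5A2 was the single list member that changed at least 1.5-fold with a call in any of the 6 comparisons. EIF5A2 encodes a tissue-restricted form of eIF5A, the factor that relieves stalled ribosomes, and so stands to EIF5A much as EEF1A2 does to EEF1A1. Its arrays read 4.95, 4.93 and 4.89 in Parental, 5.14, 5.18 and 4.77 in Mock, 5.41, 5.45 and 5.51 in clone I, and 5.55, 5.54 and 5.49 in clone II. Every array of the clones thus lay above every control array, in a gene named for its size of change. How many of all genes are separated in this way was not counted. EIF5A2 was 0.43 higher than Mock in clone I (limma adjusted p = 0.00386) and 0.50 higher in clone II (0.00145), the opposite sign to EEF1A2. Against Parental it was 0.53 higher in clone I (limma adjusted p = 0.000909) and 0.61 higher in clone II (0.000378).

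For EIF5A2, Mock minus Parental was 0.11 (limma adjusted p = 0.482), or 0.24 (0.0286) without Mock replicate 3. On probe set 235289_at the differences from Mock were 0.73 and 0.52, both called over all probe sets. On 235296_at they were 0.38 and, in clone II, 0.26 (limma adjusted p = 0.0556). Without probe sets named _s_at the call in clone II against Parental ended, at 0.22 (limma adjusted p = 0.112).

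Of the remaining cytosolic factors, EEF1D, a subunit of the exchange factor that reloads eEF1A with GTP, was lower by 0.19 in both clones against Mock (limma adjusted p = 0.0234 in clone I and 0.0243 in clone II). With the mean of its probe sets the values were -0.12 (limma adjusted p = 0.25) and -0.01 (0.954). The calls also ended without Mock replicate 2 (0.0649 and 0.0652) or 3 (0.0672 and 0.0689), in clone I without its replicate 2 (0.0768) or 3 (0.0746), and in clone II without its replicate 2 (0.0942). EEF2, the translocase, had -0.07 and -0.08, and EIF5A -0.13 and 0.13. Neither passed, though with the mean of their probe sets EEF2 passed at -0.16 (limma adjusted p = 0.0227) and -0.18 (0.0116), and EIF5A at 0.35 in clone II (0.00761).

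VARS1, the valyl-tRNA synthetase that binds the eEF1 complex, fell in clone I by 0.36 (difference -0.36, limma adjusted p = 0.00797), and was 0.33 higher in Mock than in Parental (0.0183), a call that ended without Parental replicate 1 (0.0775) or Mock replicate 3 (0.0773). In clone II it had -0.16 (limma adjusted p = 0.182). EEFSEC, the selenocysteine elongation factor, rose by 0.26 in clone II (limma adjusted p = 0.0126), and had 0.17 in clone I (0.0735). The clone II call ended after centring (0.0667) and without Mock replicate 2 (0.0557). In clone I EEFSEC passed after quantile normalisation (0.22, limma adjusted p = 0.0306) and among genes of mean log2 of at least 6 (0.0234). EEF1B2 and EEF1G, which encode further subunits of the exchange factor, and EEF1E1, which encodes an auxiliary protein of the multi-synthetase complex, had no probe set of their own single symbol and were not analysed here.

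The members named in this paragraph were chosen after their values were seen. Of 14 measured enzymes that modify elongation factors, 1 rose and 3 fell in clone I, and 2 rose and 0 fell in clone II, against the shares of 23.6% and 26.1% called over all genes. The direction turned with the scaling: 5 rose and 1 fell, and 6 rose and 0 fell, after quantile normalisation, while 0 rose and 3 fell, and 0 rose and 2 fell, after centring. The falls in clone I were in METTL13, a methyltransferase of eEF1A (-0.20, limma adjusted p = 0.0323), and in DHPS (-0.27, 0.0158) and DOHH (-0.45, 0.00253), which together make the hypusine residue of eIF5A. EEF2K, the kinase that inhibits eEF2, rose in clone I by 0.20 (limma adjusted p = 0.0303). Of the 4 lysine methyltransferases named for eEF1A, EEF1AKMT1, EEF1AKMT2 and EEF1AKMT3 were measured. None passed in either clone on the deposited values of all 12 arrays. EEF1AKMT1 passed in both clones after quantile normalisation and among genes of mean log2 of at least 6. EEF1AKMT2 passed in both without clone II replicate 3.

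Of 9 measured related GTPases and their exchange factor, 0 rose and 5 fell in clone I, and 0 rose and 3 fell in clone II. Over all genes 13.6% and 15.1% fell, against 55.6% and 33.3% of this list. Here too the examples were chosen after their values were seen. GSPT1, the release factor eRF3a, had -0.26 and -0.18 on probe set 215438_x_at (limma adjusted p = 0.00425 and 0.0335 over all genes). With the limma adjustment over all single-symbol probe sets, GSPT1 had 0.00908 and 0.0571 there, so the fall in clone II did not pass. Of its other probe sets, 201912_s_at had -0.27 and -0.22, and 217595_at, of mean 3.8, had -0.25 and -0.13. The other 3 were 225276_at, of mean 7.15, with -0.02 and -0.07, 234975_at with -0.06 and -0.04, and 240452_at with -0.05 and 0.04. GUF1, the mitochondrial counterpart of EF4, had -0.24 and -0.29 (0.0335 and 0.0124). HBS1L, which acts in ribosome rescue and resembles eEF1A, had -0.26 in clone I (0.0197) and -0.14 in clone II (0.182). After quantile normalisation 2 fell in clone I and 1 in clone II, and after centring 5 and 6 fell.

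**Figure D3:**
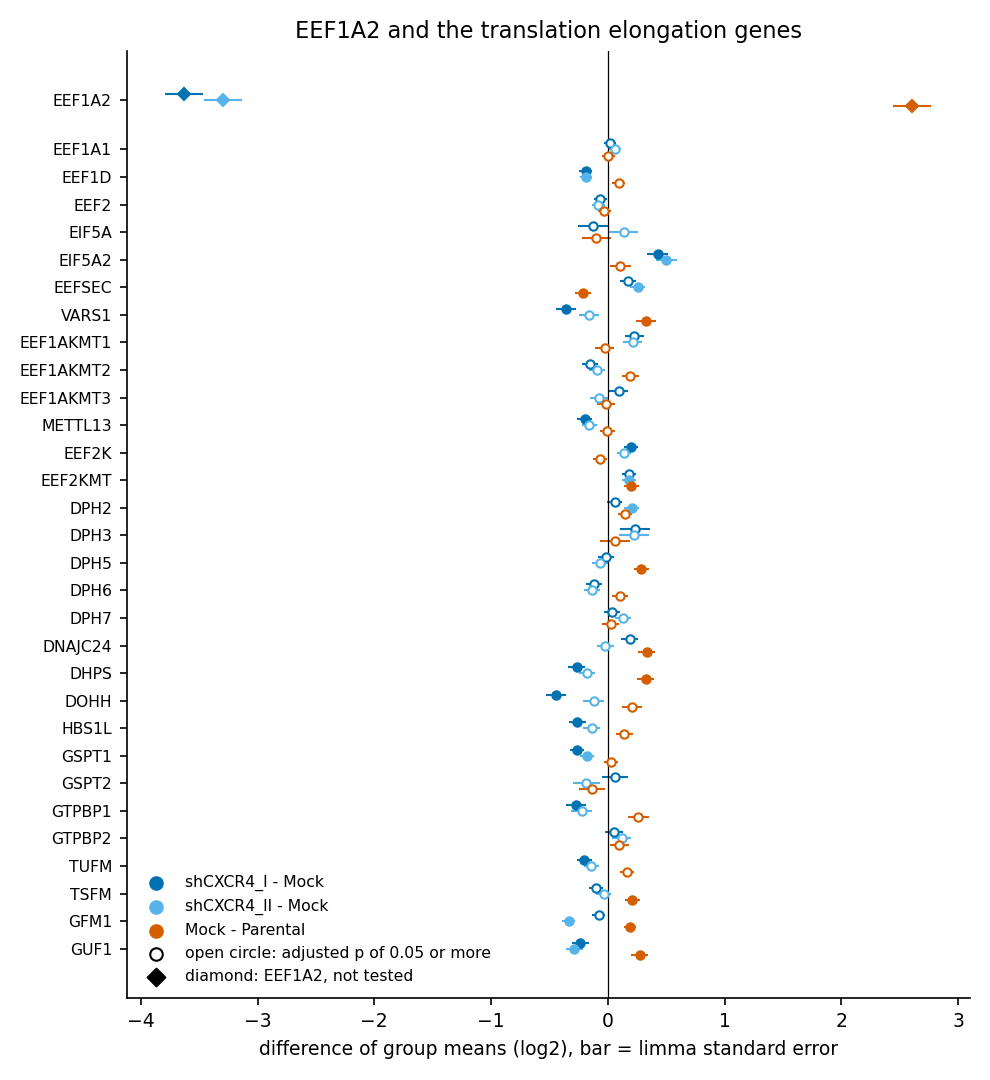
Differences of group means (log2, horizontal axis, bars are limma standard errors) for EEF1A2 and the 30 measured elongation genes (vertical axis), with each clone against Mock in blue and Mock against Parental in orange. Filled circles passed the limma test and EEF1A2 was not tested. All 30 genes stay within 1 log2 unit of 0, against -3.63, -3.29 and 2.61 for EEF1A2.

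Translation initiation factors and aminoacyl-tRNA synthetases, which supply the steps before and the substrate of eEF1A, also changed by small amounts. Of 36 initiation factor genes, 1 rose and 10 fell in clone I, and 2 rose and 6 fell in clone II, which is 30.6% and 22.2% called against 23.6% and 26.1% of all genes. After quantile normalisation 2 rose and 5 fell in clone I and 3 rose and 4 fell in clone II, and after centring 1 rose and 15 fell, and 2 rose and 10 fell. EIF4B, a cofactor of the eIF4A helicase, was lower by -0.57 and -0.49 (limma adjusted p = 0.000105 and 0.000384), and its differences from Parental were -0.59 and -0.52. On its probe set 211938_at, of mean 9.37, the differences from Mock were -0.70 and -0.68, and on 219599_at, of mean 5.79, they were -0.06 and 0.16. EIF4EBP1, which encodes a repressor of eIF4E, rose by 0.39 and 0.57 (limma adjusted p = 0.000404 and 1.66e-05). EIF2S3, the eIF2 subunit that binds initiator tRNA, had -0.18 in clone I (limma adjusted p = 0.0541) and -0.40 in clone II (0.000499). The clone I difference passed after centring (-0.24, limma adjusted p = 0.0169) and among genes of mean log2 of at least 6 (0.0141). It also passed without clone II replicate 2 (0.0425) or 3 (0.0418).

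Of 18 genes of the cytosolic synthetases and their scaffold, 4 rose and 4 fell in clone I, and 5 rose and 1 fell in clone II, which is 44.4% and 33.3% called against 23.6% and 26.1% of all genes. The balance turned with the scaling, from 6 up and 2 down, and 7 up and 0 down, after quantile normalisation to 2 up and 5 down, and 3 up and 5 down, after centring. WARS1, the tryptophanyl-tRNA synthetase, rose by 0.60 in clone I (limma adjusted p = 3.5e-05), and had 0.16 in clone II (0.109). CARS1, the cysteinyl-tRNA synthetase, rose by 0.25 and 0.34 (limma adjusted p = 0.00784 and 0.00106), but with the mean of its probe sets it had 0.08 in clone I (0.328).

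Of 10 measured genes reported as partners of eEF1A2 or in its signalling, 0 rose and 2 fell in clone I, and 0 rose and 3 fell in clone II, which is 20% and 30% called and near the 23.6% and 26.1% of all genes. After quantile normalisation 1 fell in each clone, and after centring 2 and 4 fell. STAT3, a transcription factor activated by cytokines, fell by -0.42 and -0.71 (limma adjusted p = 0.000192 and 1.94e-06), and its Mock minus Parental was 0.19 (0.0411). That last call ended under quantile normalisation (0.0828), with the mean of its probe sets (0.0818), without probe sets named _x_at or _s_at (0.0626), and in most settings that left out an array. The kinase gene AKT2 had -0.24 in each clone (limma adjusted p = 0.0469 and 0.0456). Without probe sets named _x_at or _s_at it had 0.09 and 0.02, and both calls ended after leaving out any of several single arrays, for example Mock replicate 3 (0.177 and 0.174). The lipase gene PLCG1 had -0.17 in clone I (limma adjusted p = 0.188) and -0.29 in clone II (0.0259). The clone II call ended under quantile normalisation (0.161) and without clone II replicate 2 (0.108), Mock replicate 2 (0.0605) or Mock replicate 3 (0.102).

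Markers of the tissues that normally express EEF1A2 did not rise as a group in Mock cells. Of 25 striated muscle markers, 0 passed between Mock and Parental in either direction, where 15% of all genes did, and their mean level on single arrays ran from 4.20 to 4.24 in Mock and from 4.22 to 4.26 in Parental. Against Mock, 3 muscle markers rose in clone I and 6 in clone II, and 0 fell in either, with array means of 4.28 to 4.29 and 4.31 to 4.41. Over all genes 9.97% and 11% rose, against 12% and 24% of these markers. After quantile normalisation 1 rose and 1 fell in clone I and 6 rose and 1 fell in clone II, and after centring 0 rose and 1 fell, and 4 rose and 1 fell. After centring 1 muscle marker was also higher in Mock than in Parental. The 3 with the largest change were CACNA1S, a calcium channel gene (0.16 and 0.51, limma adjusted p = 0.24 and 0.00171), MYOD1, a myogenic transcription factor (0.22 and 0.42, 0.184 and 0.0174), and MYL2, a myosin light chain (0.25 and 0.40, 0.163 and 0.0302). The calls of MYOD1 and MYL2 in clone II ended without its replicate 1 (0.0664 and 0.125) or without Mock replicate 2 (0.0715 and 0.128), and that of MYL2 also ended under quantile normalisation (0.0593).

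Of 26 neuron markers, 3 were higher and 1 lower in Mock than in Parental, 4 rose and 2 fell in clone I against Mock, and 2 rose and 2 fell in clone II. The shares called were 15.4%, 23.1% and 15.4%, against 15%, 23.6% and 26.1% of all genes. Their mean level on single arrays ran from 4.79 to 4.86 in Mock and from 4.80 to 4.86 in Parental. STMN3, given below with the chromosome neighbours, ran in the direction of EEF1A2. It had -0.61 and -1.11 in the clones (limma adjusted p = 6.93e-05 and 2.89e-07) and 0.75 for Mock minus Parental. INA, a neuronal intermediate filament gene, ran opposite to EEF1A2, at 0.74 and 0.78 in the clones (limma adjusted p = 2.93e-06 and 1.7e-06). GAD1, which makes the transmitter GABA, had 0.59 and 0.35 (0.000629 and 0.0165), and its clone II call ended under quantile normalisation (0.0551) and without clone II replicate 1 (0.0648) or Mock replicate 1 (0.0564).

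Of 13 ovarian epithelial markers, 10 or 11 lay above the array median in each group. So did 14 to 16 of the 26 neuron markers, 9 or 10 of the 25 muscle markers and 22 or 23 of the 30 chromosome neighbours. That median is taken over all probe sets, so the count does not by itself show an ovarian epithelial identity. Of the epithelial markers, 3 rose and 2 fell in clone I against Mock, and 0 rose and 7 fell in clone II. These are 38.5% and 53.8% called, against 23.6% and 26.1% of all genes. Between Mock and Parental 3 were higher in Mock and 1 lower, or 30.8% against 15%, with differences from -0.86 to 0.86. After quantile normalisation 5 rose and 2 fell in clone I and 0 rose and 6 fell in clone II, and after centring 2 rose and 3 fell, and 0 rose and 8 fell. MSLN, the mesothelin gene, fell by -0.62 and -1.26 (limma adjusted p = 0.00314 and 1.28e-05), and MUC1, a membrane mucin gene, had 0.99 in clone I (4.79e-06) and 0.01 in clone II (0.954). KRT7, a simple epithelial keratin gene, had -0.67 and -1.00 (1.93e-05 and 4.89e-07) and was 0.86 higher in Mock than in Parental (2.87e-06), the order of the controls seen for EEF1A2. On the probe sets not named _x_at or _s_at it had 0.17, 0.05 and -0.04. Leukocyte markers had array means of 3.76 to 4.08 and fibroblast and endothelial markers of 4.41 to 4.57. In Mock against Parental 0 of 6 leukocyte markers passed, and 0 of 10 fibroblast and endothelial markers were higher and 1 lower, where 15% of all genes passed. Against Mock, 2 leukocyte markers rose in each clone and 0 fell, or 33.3% up against 9.97% and 11% of all genes. In clone I 2 fibroblast and endothelial markers rose and 1 fell, and in clone II 3 rose and 0 fell. This is 30% called in each clone, against 23.6% and 26.1% of all genes. Not all of these marker calls held after quantile normalisation or centring. The part of these markers in the EEF1A2 values was not tested.

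The genes with the profile most like that of EEF1A2 were found by subtracting each gene's own mean and taking the root mean square difference over the 12 arrays. The 8 nearest were TOX3 at 0.36 log2 units, LRCH2 at 0.43, NOSTRIN at 0.44, SAGE1, FREM2 and DEFB1 at 0.55 each, EYA4 at 0.57 and TCF7L1 at 0.68. The median gene stood at 1.45. These genes were chosen by likeness and their values are a description, with arrays, cells and processing shared by all.

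TOX3 followed the same order of controls as EEF1A2, with group means of 6.24 for Parental, 8.20 for Mock and 4.95 and 4.92 for clones I and II. Its 3 probe sets named _x_at had differences from Mock between -3.05 and -3.45, while its 230745_s_at, at a mean of 4.43, had 0.05 and 0.24. EYA4, which encodes a transcriptional coactivator and phosphatase, had 4.37, 5.50, 2.86 and 3.04, and TCF7L1, a transcription factor of the Wnt pathway, had 6.39, 7.28, 5.07 and 4.83. DEFB1, a secreted antimicrobial defensin gene, had 4.62, 5.98, 3.54 and 3.58. In these 4 genes, as in EEF1A2, Parental stood more than 1 log2 unit above clone I.

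In the other 4 genes the Parental and clone means all lay below the array medians, so their closeness there cannot be set apart from the floor of the scale. LRCH2 had means of 2.42 in Parental, 5.57 in Mock, 2.36 in clone I and 2.61 in clone II. NOSTRIN, which encodes a regulator of nitric oxide synthase trafficking, had 3.08, 5.52, 2.95 and 2.73. SAGE1, a cancer-testis antigen gene, had 2.63, 4.72, 2.42 and 2.10, and FREM2, an extracellular matrix gene, had 4.19, 5.95, 3.72 and 3.57. All 8 had every Mock array above every other array.

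The mirror image of the EEF1A2 profile was nearest in NRCAM, a neural adhesion molecule gene, at 0.54, BCL2L15, a gene of the BCL2 family, at 0.57, SAMD5 at 0.61 and UNC93A at 0.63. NRCAM had means of 8.72 in Parental, 6.96 in Mock, 9.28 in clone I and 9.17 in clone II. BCL2L15 had 8.34, 5.53, 7.96 and 8.33. Both were thus lowest in Mock, where EEF1A2 was highest.

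The choice of likeness mattered for the list of 8. All 8 were found again after quantile normalisation, and 7 or 8 of them after leaving out any single array. Dividing each profile by its own SD compares shape and not size, and was done only among genes past a minimum deviation over the arrays. With it, 4 of the 8 were found again (FREM2, TOX3, NOSTRIN and DEFB1), with HSPB3, CENPV, CADPS2 and NEDD9 in place of the others. These 3 alternatives were chosen after the data had been seen. The 8 genes lie on chromosomes 16, X, 2, X, 13, 8, 6 and 2 in the order given, and EEF1A2 lies on chromosome 20 (GRCh38.p14 gene table).

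**Figure D4:**
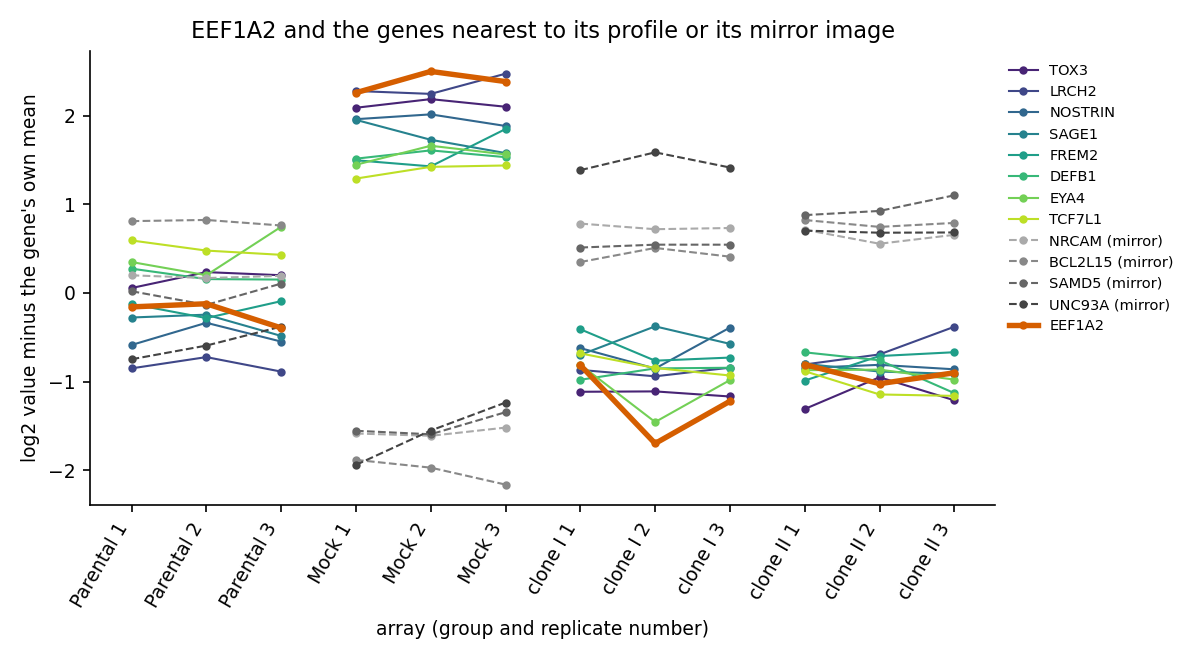
Log2 value minus the gene's own mean (vertical axis) on each of the 12 arrays (horizontal axis) for EEF1A2 (thick orange line), the 8 genes nearest to its profile (solid lines) and the 4 nearest to its mirror image (dashed lines). Lines join arrays within a group. EEF1A2 and the 8 like genes have their 3 highest points on the Mock arrays, and the 4 mirror genes their 3 lowest.

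Genes next to EEF1A2 on chromosome 20 did not share its size of change. EEF1A2 is number 455 of 483 measured protein-coding genes in the order along this chromosome. Of the 15 nearest measured genes on each side, 2 rose and 3 fell in clone I against Mock, 2 rose and 2 fell in clone II, and 4 were higher and 0 lower in Mock than in Parental. These are 16.7%, 13.3% and 13.3% called, against 23.6%, 26.1% and 15% of all genes. After quantile normalisation 2 rose and 1 fell in clone I, and after centring 0 rose and 5 fell in clone I and 1 rose and 6 fell in clone II. The medians of the 30 were -0.03, 0.00 and 0.06. The nearest measured gene on the left, COL20A1, a collagen gene, had means of 3.94 in Parental, 3.89 in Mock, 4.03 in clone I and 3.95 in clone II. The nearest on the right, PPDPF, had 8.33, 8.48, 8.45 and 8.42. Neither passed in any of the 6 comparisons.

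STMN3, which encodes a neuronal microtubule regulator of the stathmin family and is also on the list of neuron markers, lies 7 measured genes to the right. Its arrays read 6.50, 6.43 and 6.38 in Parental, 7.12, 7.15 and 7.27 in Mock, 6.64, 6.45 and 6.64 in clone I, and 6.04, 6.19 and 5.99 in clone II. Mock arrays were thus the highest, as for EEF1A2. STMN3 was lower than Mock by -0.61 in clone I (limma adjusted p = 6.93e-05) and -1.11 in clone II (2.89e-07), and 0.75 higher in Mock than in Parental (1.67e-05). Against Parental it had 0.14 in clone I (limma adjusted p = 0.253) and -0.36 in clone II (0.00512). Averaging its probe sets ended the last call, at -0.17 (0.167).

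Among the other neighbours, BHLHE23, a transcription factor gene 6 places to the left, had 0.33 and 0.47 in the clones (limma adjusted p = 0.217 and 0.0749), and passed in clone II without its replicate 3, at 0.70 (0.0064). NKAIN4, which encodes a partner of the sodium pump and lies 3 places to the left, rose by 0.38 and 0.58 (limma adjusted p = 0.0433 and 0.00488). Its call in clone I ended under quantile normalisation (0.076), after centring (0.0568) and in most settings that left out an array. PTK6, the gene of a cytoplasmic tyrosine kinase, 2 places to the right, was 0.43 higher in Mock than in Parental (0.000807) and -0.41 against Mock in clone II (0.00076), and was chosen after its values were seen.

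The number of neighbours called in clone I was 1 without clone I replicate 1, Mock replicate 2 or Mock replicate 3, 2 without clone I replicate 3 and 3 without Mock replicate 1. In clone II it was 7 without clone II replicate 3.

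**Figure D5:**
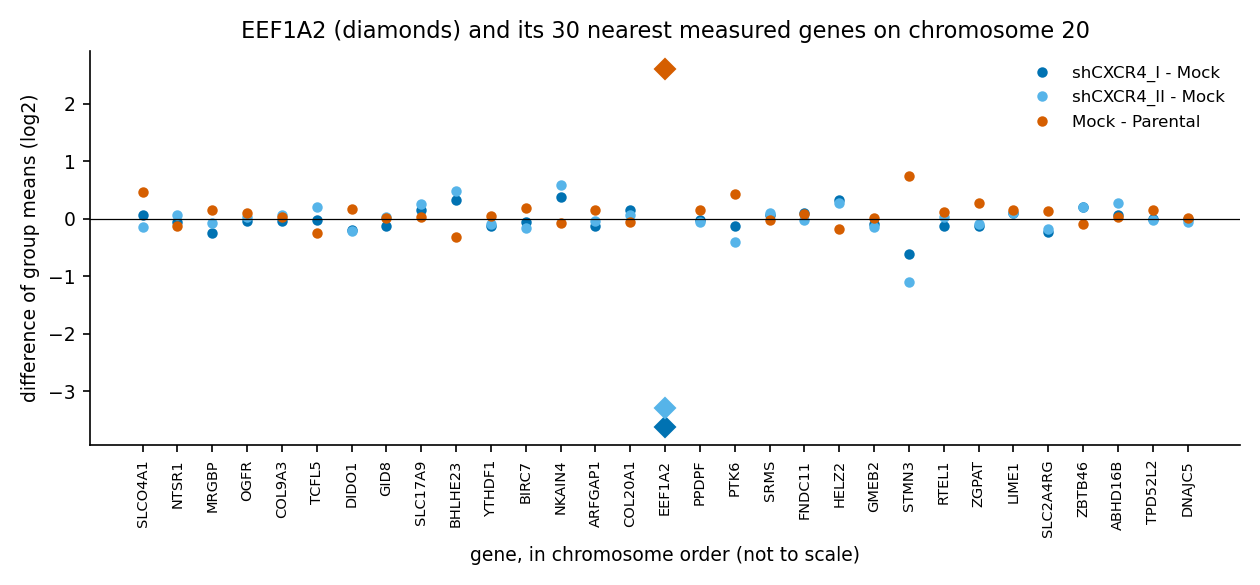
Differences of group means (log2, vertical axis) for EEF1A2 (diamonds) and the 15 nearest measured genes on each side of it, in chromosome order and not to scale (horizontal axis). Blue marks each clone against Mock and orange Mock against Parental. STMN3, at -0.61, -1.11 and 0.75, is the neighbour farthest from 0, and EEF1A2 stands at -3.63, -3.29 and 2.61.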

How the data were processed

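The values are log2 signals as the authors deposited them, 1 for each probe set on each array. RMA and R 2.6.0 are named in the submitters' processing notes. Which chip definition, background step and filters were used is not given in the sources used here. No normalisation was added. Of 54675 probe sets, 41097 carry 1 gene symbol, 1801 several and 11777 none. Where several single-symbol probe sets name a gene, that of highest mean stands for it, which gave 19775 genes. The gene name table held the Entrez number of 41043 probe sets, and 0 symbols were updated. Gene order came from the GRCh38.p14 table.

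All 12 arrays entered 1 group-means model with limma 3.58.1, run in R 4.3.3, with 8 residual and 5.19 prior degrees of freedom from eBayes. A gene was called at a two-sided Benjamini-Hochberg adjusted p under 0.05 over all genes. This holds also where the probe set that stands for a gene is named, unless stated otherwise. For further probe sets of a gene, and for all those of EEF1A1, the adjustment covers every single-symbol probe set. EEF1A2 was not tested, because its values chose it. Signals as percent or fold are antilogs of differences of log2 means. The code was tested on simulated data.

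The gene and the 11 lists were chosen with earlier results of these data known. Named are EEF1A2, CXCR4, EEF1A1, the cytosolic elongation factors, elongation list members past the test and 1.5-fold, up to 3 members per other list and of the neighbours by largest change in either clone against Mock, the 8 like and 4 mirror profiles, and the 2 genes on each side of EEF1A2 in rank. The leukocyte, fibroblast and endothelial lists are given as levels and counts only. Alternatives were quantile normalisation, centring on array medians, averaging the probe sets of a gene, no _x_at or _s_at probe sets, a mean log2 of at least 6, only the groups compared, a replicate block, and leaving out each array. Figures were drawn with Python 3.11.15 and matplotlib 3.10.9.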

Additional observations from a re-analysis of the deposited data

Results flagged for a closer look

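The effect of the 2 clones against Mock differed between clones for 13 of the elongation genes, chromosome neighbours and other genes named, by the limma test of clone I minus clone II (adjusted p in parentheses). CXCR4 itself was 0.47 higher in clone I (0.00517). Among elongation genes these are DOHH at -0.32 (0.0415) and GFM1, a mitochondrial elongation factor, at 0.26 (0.0119). Among chromosome neighbours they are SLCO4A1 at 0.20 (0.0432), PTK6 at 0.29 (0.0213) and STMN3 at 0.50 (0.00142). From the other lists they are EIF2S3 at 0.22 (0.0455), WARS1 at 0.45 (0.00166), STAT3 at 0.29 (0.00872), CACNA1S at -0.35 (0.0402), MUC1 at 0.98 (2.11e-05), KRT7 at 0.32 (0.0151) and MSLN at 0.63 (0.00852). Over all genes, 7.15% passed this test, 4.66% up and 2.48% down, against 6.67% of the 30 elongation genes and 10% of the 30 neighbours. The genes from the other lists were named for a large change in either clone against Mock. That rule favours genes that differ between the clones, so their number is not set against this share. With the mean of probe sets the call ended for STMN3 at 0.27 (0.053), STAT3 at 0.13 (0.259), EIF2S3 at 0.10 (0.563), KRT7 at 0.17 (0.0877), GFM1 at 0.08 (0.526) and SLCO4A1 at 0.05 (0.703). Without probe sets named _x_at or _s_at it ended for DOHH (-0.24, 0.416), EIF2S3 (0.22, 0.07) and KRT7 (0.12, 0.42). Leaving out single arrays ended it in 10 of 12 cases for EIF2S3, 9 for SLCO4A1, 8 for DOHH, 6 for CACNA1S, 3 each for PTK6 and KRT7, and 1 each for GFM1 and STAT3, for example without clone I replicate 1 for EIF2S3 (0.125), SLCO4A1 (0.157), DOHH (0.113), KRT7 (0.0643), GFM1 (0.051) and STAT3 (0.05), without clone I replicate 3 for CACNA1S (0.161) and without clone I replicate 2 for PTK6 (0.0877). Those of EIF2S3, DOHH and SLCO4A1 also ended after centring (0.055, 0.0693 and 0.0618), and that of SLCO4A1 after quantile normalisation (0.0537). Groups of 3 arrays are too small for a check on single outlying arrays.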

How the results depend on the processing

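The 6 EEF1A2 differences kept their sign and moved by less than the pooled SD of 0.25 under every alternative run for them. Of these, averaging probe sets and the balanced replicate block could not move them, since EEF1A2 has a single probe set. Leaving out single arrays gave -3.84 to -3.40 and -3.35 to -3.23 for clones I and II against Mock, 2.52 to 2.67 for Mock against Parental, -1.24 to -0.79 and -0.77 to -0.63 against Parental, and -0.55 to -0.11 between the clones. Counts of calls moved more, and the cause was not tested. After quantile normalisation, 3 neighbours passed in clone I against Mock and 4 against Parental, and 5 elongation genes passed between Mock and Parental and 10 in clone II against Parental. After centring, 7 neighbours passed in clone II against Mock and 1 elongation gene between the clones. With the mean of probe sets, 4 and 3 neighbours passed in clones I and II against Parental, and 1 neighbour and 1 elongation gene between the clones. Without probe sets named _x_at or _s_at, 5 elongation genes passed in clone I against Mock, 4 in Mock against Parental, 2 in each clone against Parental and 1 between the clones, as did 865 of all genes between the clones. In fits of only the groups compared, 3027 genes passed in clone II against Mock and 735 between the clones.

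Leaving out single arrays gave 4 to 14 elongation genes for clone I and 3 to 10 for clone II against Mock, 3 to 11 for Mock against Parental, 4 to 8 and 3 to 6 against Parental, and 0 to 2 between the clones. For the neighbours it gave 1 to 5, 3 to 7, 4 to 5, 2 to 4, 2 to 6 and 1 to 4 in that order. Over all genes it gave 2215 to 4033 in clone II against Parental, lowest without Parental replicate 2, and 770 to 1799 between the clones, where leaving out clone I replicate 1, 2 or 3 or clone II replicate 2 gave 770, 789, 914 and 879. The lone pair left in a group shares the spread estimate of all groups.

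Same-numbered arrays did not deviate together, with correlations of -0.11 to 0.15 over 18 pairs, 2 of them over 0.1, and 2 of 12 arrays were best correlated with their own number. Groups of 3 arrays are too small for this to show whether same-numbered arrays were handled together, and the labels do not say. Replicate numbers are balanced over the groups, so the replicate block could not change the EEF1A2 differences of -3.63, -3.29, 2.61, -1.02, -0.69 and -0.33. The block gave 1 elongation gene between the clones and kept the other counts within 1.5 times. Of genes named, BHLHE23 was gained in clone II against Mock (0.0347), while both AKT2 calls (0.0615 and 0.0598), STAT3 between Mock and Parental (0.0663), and EIF2S3, DOHH and SLCO4A1 between the clones (0.0556, 0.0548 and 0.0764) ended. The 3 arrays of a group limit the precision, and EEF1A2 was least precise in clone I (SD 0.44), where its signal lay around the array medians.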
